A study of Mus musculus with 2 samples.

Results

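The 10 genes described here are Cdkn1a, Mdm2, Ccng1, Trp53inp1, Gdf15, Phlda3, Bax, Aen, Zmat3 and Bbc3, textbook targets that p53 switches on after DNA damage. They were chosen by symbol from the 32285 genes listed for each library, and all 10 were found. Their levels were measured in post-ischemic mouse kidney by single-cell RNA sequencing, cell class by cell class, in a library from a mouse given JPI-289, an inhibitor of poly (ADP-ribose) polymerase (PARP), and in a control library from a mouse given saline.

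Both mice were male C57BL/6 animals of 9 weeks. Both underwent bilateral renal ischemia-reperfusion surgery, with saline or JPI-289 at 100 mg/kg given into the peritoneal cavity just before reperfusion, and both kidneys were taken at 24 h. There was 1 mouse and 1 library per group, and no kidney without ischemia was analysed here, which means that values describe these 2 libraries and that saline and JPI-289 could not be tested against each other. The 95% intervals given reflect the counting of molecules alone and hold nothing of the variation from mouse to mouse. Levels are given as CPM, the UMIs of a gene for every 1000000 UMIs of the cells concerned.

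p53 is a transcription factor that is held at a low level by the ubiquitin ligase Mdm2. DNA strand breaks activate kinases that free p53 from Mdm2, and p53 then induces genes that stop the cell cycle, feed back on p53 itself or start apoptosis. PARP-1 binds DNA breaks and takes part in their repair, and in the kidney ischemia and reperfusion damage the DNA of tubular cells, above all of the proximal tubule (PT).

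The control library held 38328760 unique molecular identifiers (UMIs, counted RNA molecules) and the JPI-289 library 35548396. After cell calling and removal of cells with over 50% mitochondrial UMIs, 3745 control and 5027 JPI-289 cells were kept, with a median of 2063 and 1872 UMIs, and 23 cell barcodes occurred in both libraries. Clusters were named from marker genes as PT-like (1771 control and 1637 JPI-289 cells), loop and distal tubule-like (495 and 653), collecting duct-like (129 and 446), endothelial or EC-like (498 and 566), stroma-like (159 and 102), macrophage-like (132 and 170) and neutrophil-like (196 and 654). The podocyte-like (54 and 58), red blood cell-like (77 and 123) and lymphocyte-like classes (6 and 97) were too small for most of the 10 genes, and clusters without a name held 6.09% of control and 10.4% of JPI-289 cells. Each PT-like cluster came to at least 93.7% from 1 library, so within the PT-like class a difference between clusters and a difference between libraries cannot be told apart.

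The genes lie on 8 chromosomes, and 3 of them, Bax, Aen and Bbc3, share chromosome 7. In GENCODE vM21 on GRCm38, the build of the files (mm10), Cdkn1a (ENSMUSG00000023067) spans positions 29090976 to 29100727 of chromosome 17 on the plus strand. Ccng1 (ENSMUSG00000020326) spans 40748552 to 40755311 of chromosome 11 and Gdf15 (ENSMUSG00000038508) 70629393 to 70632456 of chromosome 8, both on the minus strand. All 10 are protein-coding, and no gene listed in the files overlaps any of them.

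The RefSeq table of promoters on GRCm38.p6 held windows for 8 of the 10 genes, 13 windows in all, each from 250 bases before to 50 bases after a transcription start. They were searched for the p53 full site, which spans 20 bases and is made of a motif and its adjoining repeat, allowing 2 mismatches but none in the C and G at the core of each repeat. This consensus reads the same on both strands. Such a site was found in 1 Cdkn1a and 1 Ccng1 window, and in 107 of all 32851 windows (0.326%). The 2 sites are shown because they were the only full sites found in the windows of these genes, and because the 2 genes differed in opposite directions in PT-like cells. Capitals mark the site, flanked by 10 bases on each side, 5′ to 3′ on the strand of the gene.
Cdkn1a, chr17:29090918-29090957, plus strand: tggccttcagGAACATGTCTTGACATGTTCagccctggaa
Ccng1, chr11:40755452-40755491, minus strand: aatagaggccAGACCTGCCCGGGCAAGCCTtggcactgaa
Each site had 1 mismatch to the consensus. The Cdkn1a site begins 51 bases before the more upstream of its 2 annotated starts in the table and holds the pair of CATG cores, spaced by 6 bases, that 0.712% of all windows have. The Ccng1 site begins 195 bases before the start. A single repeat without mismatch was more common, in 6 of the 13 windows of these genes and in 8.36% of all windows. A match describes letters only and says nothing about p53 binding in these kidneys, and no match in the other windows says only that the site is not within them.

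Cdkn1a encodes p21, the inhibitor of cyclin-dependent kinases that arrests the cell cycle after damage, and in PT-like cells it had the highest ratio of the 10. It had 552 UMIs in control and 2705 in JPI-289 PT-like cells, which is 68.2 CPM (62.6 to 74.1) and 369 CPM (355 to 383). The level was 5.41-fold higher with JPI-289, a log2 ratio of 2.44 (2.31 to 2.57), and 0.902% of the 11307 genes with at least 20 UMIs had a ratio as high or higher. After each cell was thinned to 1000 UMIs, a Cdkn1a UMI was found in 5.76% (4.57 to 7.15%) of PT-like cells after saline and in 24.5% (22.0 to 27.1%) after JPI-289. Thinning left out 435 and 501 shallower cells; without it the shares were 17.3% and 46.2%. Red blood cells, which should lack the transcript, held it in 0 of 56 (which allows up to 5.36%) and 4 of 93 thinned cells (4.30%, 1.18 to 10.6%), and the median depths there were 1513 and 1531 UMIs against 2313 and 1860 in PT-like cells. The higher share in PT-like cells of the JPI-289 library therefore exceeded that in red blood cells, and the intervals of the 2 libraries did not overlap.

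Higher Cdkn1a was not limited to the tubule. In EC-like cells it went from 641 (606 to 677) to 2136 (2067 to 2206) CPM, in stroma-like cells from 215 (185 to 248) to 925 (834 to 1024), and in loop and distal tubule-like cells from 207 (184 to 232) to 808 (768 to 849). Collecting duct-like cells had 172 (149 to 197) and 458 (425 to 494), and macrophage-like cells 675 (608 to 747) and 1347 (1248 to 1450), just under 2-fold. Thinned EC-like cells held a Cdkn1a UMI in 36.3% (31.3 to 41.5%) of cases after saline and 75.1% (70.4 to 79.4%) after JPI-289. In these 5 classes and in PT-like cells the level was higher in the JPI-289 library, with log2 ratios from 1.00 to 2.44. Markers moved with some of these values. In stroma-like cells the 12 stroma markers summed to 18256 CPM after saline and 9069 after JPI-289, neutrophil markers to 9.28 and 590, and red blood cell markers to 84.7 and 407. In macrophage-like cells the 11 macrophage and monocyte markers summed to 14012 and 6989 CPM, red blood cell markers to 80.3 and 3685, and neutrophil markers to 43.8 and 394. Their part in the levels of Cdkn1a and of the other genes in these classes was not tested. Neutrophil-like cells went the other way, from 710 (633 to 794) CPM after saline to 468 (435 to 503) after JPI-289, which is -0.60 (-0.79 to -0.41) in log2. That direction held within the main neutrophil-like cluster (-0.58) but was 0.29 when only the first, depth-based step of cell calling was used, which left 32 control and 211 JPI-289 neutrophil-like cells. Shares of neutrophil-like cells with a Cdkn1a UMI overlapped, at 37.9% (30.7 to 45.4%) and 32.3% (28.5 to 36.3%) after thinning and at 43.9% and 44.8% without it.

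The order of the classes by Cdkn1a level also differed between the libraries. In the control library neutrophil-like, macrophage-like and EC-like cells stood highest, with intervals that overlapped from each to the next, and below a gap followed stroma-like, loop and distal tubule-like, collecting duct-like, podocyte-like and PT-like cells, each overlapping the next. Red blood cells were lowest at 7.02 CPM. In the JPI-289 library EC-like cells stood first and macrophage-like cells second without overlap, stroma-like and loop and distal tubule-like cells came next with overlapping intervals, and PT-like cells stood below every class but red blood cells, without overlap. PT-like cells thus had the lowest level of the 7 larger classes in both libraries, and the highest ratio, whose interval overlapped that of stroma-like cells (1.85 to 2.37).

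**Figure D1:**
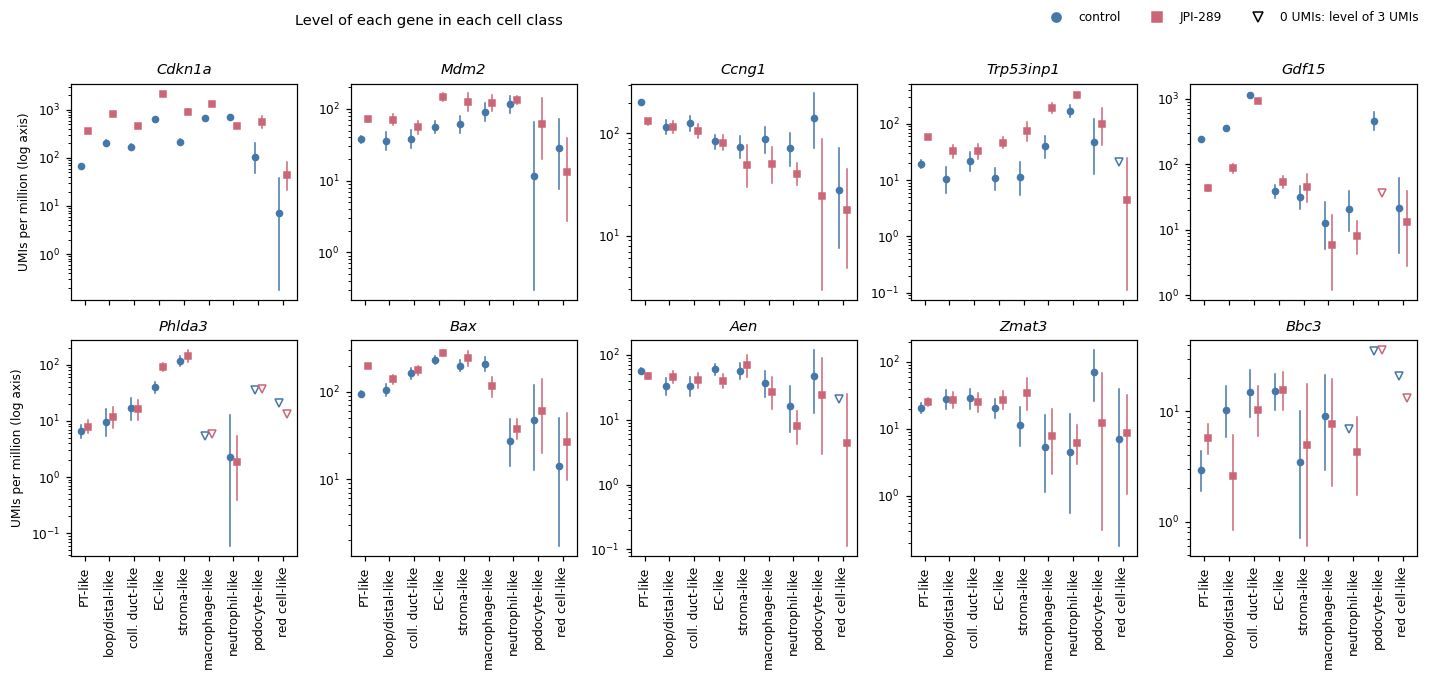
Level of each of the 10 genes in 9 cell classes, in CPM on a log axis, with control as circles and JPI-289 as squares. Lines are 95% Poisson intervals of the counts, and open triangles stand at the level of 3 UMIs where a library held none; Cdkn1a squares lie above the circles in every class but neutrophil-like cells.

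Mdm2 encodes the ligase that marks p53 for destruction and is itself induced by p53, which closes a negative feedback loop. Its level was higher in the JPI-289 library in all 7 larger classes, although with equal weight of cells the ratio was -0.14 in collecting duct-like and -0.030 in neutrophil-like cells. PT-like cells had 37.5 (33.4 to 42.0) CPM after saline and 71.7 (65.7 to 78.1) after JPI-289, 1.91-fold more, or 0.93 (0.73 to 1.14) in log2. EC-like cells had 55.4 (45.5 to 66.9) and 146 (128 to 165) CPM, or 1.39 (1.06 to 1.73) in log2, and stroma-like cells 61.5 and 126 CPM. The intervals of the ratio lay above 0 in 4 of the 7 classes, namely PT-like, loop and distal tubule-like, EC-like and stroma-like cells, and crossed 0 in collecting duct-like (38.6 and 55.4 CPM), macrophage-like (91.2 and 123) and neutrophil-like cells (117 and 133), the last of which had the highest control level of the 7. In thinned PT-like cells the share with an Mdm2 UMI was 4.64% (3.58 to 5.91%) and 5.11% (3.90 to 6.55%), and in thinned red blood cells 1.79% (0.0452 to 9.55%) and 2.15% (0.262 to 7.55%). These intervals overlap, so at 1000 UMIs per cell neither a difference in the share nor a share above background was detectable. Without thinning, at unequal depths, the shares were 12.6% and 20.3% in PT-like cells and 3.90% and 2.44% in red blood cells.

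Trp53inp1 encodes a stress-induced nuclear protein that takes part in p53-dependent arrest, apoptosis and autophagy. It was the other gene that was higher with JPI-289 in all 7 classes, and its ratio was at least 2-fold in 5 of them. The interval lay above 0 in 6 and crossed 0 in collecting duct-like cells, at 0.57 (-0.13 to 1.32). Shares of collecting duct-like cells with a Trp53inp1 UMI were 2.94% and 2.66% after thinning and 14.0% and 8.52% without it. PT-like cells had 155 and 426 UMIs, or 19.1 (16.2 to 22.4) and 58.2 (52.8 to 63.9) CPM, a log2 ratio of 1.60 (1.33 to 1.88). EC-like cells had 10.7 (6.61 to 16.3) and 46.1 (36.5 to 57.4) CPM, and macrophage-like cells 40.1 (25.2 to 60.8) and 189 (153 to 230). Its ratio was highest in stroma-like cells, at 2.63 (1.60 to 3.87), on 10 and 30 UMIs. In neutrophil-like cells, the highest of the 9 classes in both libraries, it had 170 (134 to 214) and 318 (291 to 347) CPM, where Cdkn1a was lower with JPI-289. The summed levels of the 2 genes therefore differed in opposite directions in neutrophil-like cells.

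Ccng1 encodes cyclin G1, which recruits a phosphatase to Mdm2 and is among the most strongly p53-dependent transcripts in many tissues. It was higher with JPI-289 in none of the 7 classes. In PT-like cells 1633 control and 957 JPI-289 UMIs gave 202 (192 to 212) and 131 (122 to 139) CPM, or -0.63 (-0.74 to -0.51) in log2. Over all genes tested the median log2 ratio in PT-like cells was -0.19, and relative to it Ccng1 stood at -0.43. Macrophage-like (-0.79) and neutrophil-like cells (-0.84) also had intervals below 0, while loop and distal tubule-like cells had 116 CPM in both libraries (0.071 in log2 relative to all genes). In EC-like cells the ratio was -0.041 (-0.38 to 0.29) and turned to 0.13 relative to all genes. PT-like cells had the highest level of Ccng1 in both libraries, although in each the interval overlapped that of the next class.

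Gdf15 encodes growth differentiation factor 15, a secreted stress hormone of the TGF-β family that p53 and other stress pathways induce. It differed most in the direction opposite to Cdkn1a. In PT-like cells 1964 control and 319 JPI-289 UMIs gave 242 (232 to 253) and 43.5 (38.9 to 48.6) CPM. JPI-289 cells were 5.56-fold lower, or -2.48 (-2.65 to -2.31) in log2, and 5.18% of all genes had a ratio as low or lower. The share of thinned PT-like cells with a Gdf15 UMI was 10.9% (9.24 to 12.6%) after saline and 2.64% (1.79 to 3.75%) after JPI-289, and 22.1% and 7.82% without thinning. The thinned JPI-289 share overlapped that in JPI-289 red blood cells, 1.08% (0.0272 to 5.85%).

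Beyond the PT, Gdf15 differed from one tubule segment to the next. Loop and distal tubule-like cells resembled PT-like cells, with 352 (322 to 385) and 86.1 (73.5 to 100) CPM and a log2 ratio of -2.03 (-2.30 to -1.78), and both of their clusters did so (-2.15 and -1.87). Collecting duct-like cells had the highest level in both libraries, 1139 (1079 to 1201) and 907 (860 to 956) CPM, and differed less, with a log2 ratio of -0.33 (-0.44 to -0.22), or -0.080 with equal weight of cells. The share of these cells with a Gdf15 UMI was 36.3% (27.0 to 46.4%) after saline and 44.8% (39.9 to 49.7%) after JPI-289 when thinned, which overlap, and 50.4% and 60.3% without thinning, so no direction is read for this class. The high level belonged to the cluster led by Aqp2, Sprr2f and Fxyd4, the water channel gene Aqp2 being a marker of principal cells, at 1363 and 1023 CPM, while the cluster led by Atp6v1g3, Slc4a9 and Slc26a4, genes of acid-base transport, had 72.6 and 54.5 CPM. Depth differed within the class, with a median of 6013 UMIs per control and 1562 per JPI-289 cell. Markers in collecting duct-like cells differed as well. Collecting duct markers summed to 12139 CPM after saline and 7561 after JPI-289. Urothelium markers summed to 2785 and 4055, and neutrophil markers to 8.39 and 455. Their part in the levels of Gdf15 and of the other genes in this class was not tested. Whether the Gdf15 UMIs of the cluster led by Aqp2 came from principal cells was not tested either. Of all Gdf15 UMIs in kept cells, collecting duct-like cells supplied 30.3% after saline and 52.2% after JPI-289. PT-like cells supplied 43.8% after saline, the most of any class, and 319 of 2667 UMIs after JPI-289. Podocyte-like cells had 39 Gdf15 UMIs after saline and 0 after JPI-289. Taking 3 UMIs in the JPI-289 class as the limit that a count of 0 allows, the control level was 12.5-fold that limit. With the counting error of both libraries, the upper end of the interval of the log2 ratio was -3.28. In the same cells PT markers summed to 5602 and 1922 CPM and endothelium markers to 587 and 109, and their part in this difference was not tested. EC-like cells had a ratio of 0.47 (0.019 to 0.94), but in the 1 EC-like cluster with many cells of both libraries it was -0.53 (-1.20 to 0.096), and the thinned share of all EC-like cells with a Gdf15 UMI was 3.05% (1.53 to 5.39%) after saline and 1.07% (0.293 to 2.72%) after JPI-289. No direction is read for EC-like cells from these values. Free RNA, taken from barcodes under 100 UMIs, was expected to give 50.4 of the 75 Gdf15 UMIs of control EC-like cells and 25.6 of the 91 of JPI-289 ones, against 67.8 of 1964 in control PT-like cells.

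Bax, the effector that permeabilizes the outer mitochondrial membrane in apoptosis, was higher with JPI-289 in PT-like cells. Its level was 93.8 (87.3 to 101) CPM after saline and 200 (190 to 210) after JPI-289, 2.13-fold more, or 1.09 (0.96 to 1.22) in log2. The thinned share of PT-like cells with a Bax UMI was 7.26% (5.93 to 8.79%) and 18.8% (16.6 to 21.2%), against 25.3% and 40.8% without thinning and 0 of 56 and 1 of 93 thinned red blood cells. In macrophage-like cells Bax was lower, with 208 (172 to 250) and 116 (88.3 to 149) CPM, a log2 ratio of -0.84 (-1.32 to -0.38), in the class whose markers also differed as given above. The ratios in the other 5 classes lay between 0.10 and 0.40.

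Bbc3 encodes Puma, the BH3-only protein that p53 uses to trigger apoptosis. It was scarce, with 24 and 42 UMIs in all PT-like cells, or 2.96 (1.90 to 4.41) and 5.73 (4.13 to 7.75) CPM, a log2 ratio of 0.94 (0.20 to 1.74). In loop and distal tubule-like cells it had 15 and 5 UMIs, a log2 ratio of -1.91 (-3.82 to -0.47). Both values rest on few molecules. Only 4 of the 7 classes reached 20 UMIs of Bbc3 over both libraries. Outside these 7, lymphocyte-like cells of the JPI-289 library had 149 (103 to 210) CPM on 33 UMIs. That was 21.3% of the Bbc3 UMIs in kept JPI-289 cells, and the 6 control lymphocyte-like cells held 4 UMIs.

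Phlda3, a PH-domain protein that restrains Akt signalling, had its clearest difference outside the tubule. EC-like cells had 40.2 (31.8 to 50.1) CPM after saline and 91.5 (77.8 to 107) after JPI-289, or 1.18 (0.79 to 1.60) in log2. The EC-like cluster shared by the libraries gave 1.16 (0.63 to 1.72). The thinned shares of EC-like cells with a Phlda3 UMI overlapped, at 4.43% (2.55 to 7.10%) and 7.51% (5.05 to 10.7%), and were 10.8% and 15.4% without thinning. In PT-like cells the levels were 6.54 (4.90 to 8.56) and 7.92 (6.01 to 10.2), which overlap. Stroma-like cells had its highest level in both libraries, 117 (95.4 to 142) and 146 (111 to 188) CPM. Macrophage-like cells held no Phlda3 UMI in either library, which allows levels of up to 5.47 CPM (control) and 5.79 CPM (JPI-289).

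Aen, an exonuclease that degrades DNA in apoptosis, and Zmat3, a zinc-finger protein that regulates RNA splicing and stability, differed little in PT-like cells. Aen had 55.9 (50.9 to 61.3) and 47.5 (42.6 to 52.8) CPM there, a log2 ratio of -0.24 (-0.44 to -0.031), or -0.042 relative to all genes. In the summed EC-like cells Aen was lower with JPI-289, at -0.60 (-1.06 to -0.16). In the EC-like cluster shared by the libraries it was -0.45 (-1.03 to 0.091), and with equal weight of cells -0.19. The thinned shares of EC-like cells with an Aen UMI overlapped, at 4.99% (2.98 to 7.77%) and 2.68% (1.29 to 4.88%). Zmat3 had 20.6 (17.6 to 24.0) and 25.3 (21.7 to 29.2) CPM in PT-like cells, and its interval crossed 0. Its ratio was over 2-fold in 1 class, stroma-like cells, at 1.56 (0.30 to 2.91) on 10 and 14 UMIs.

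**Figure D2:**
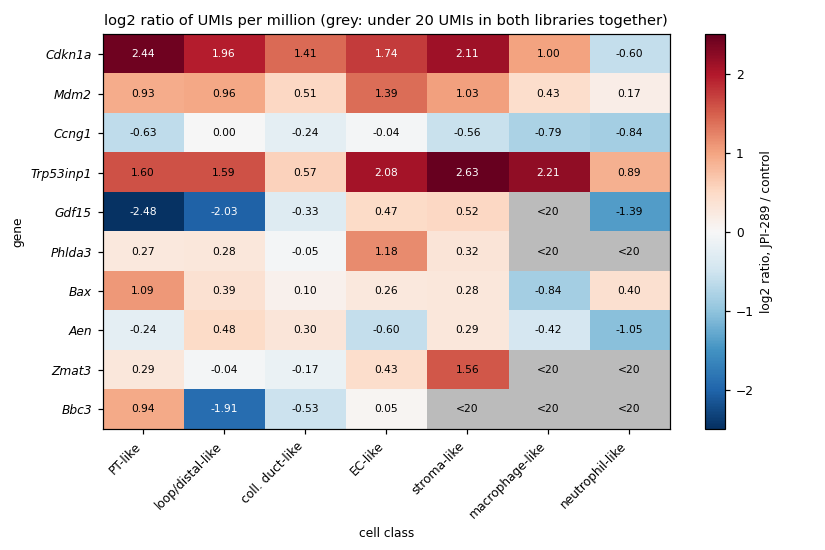
log2 ratio of JPI-289 over control for each gene (rows) in the 7 larger cell classes (columns), red for higher and blue for lower with JPI-289 and grey where both libraries together held under 20 UMIs. Trp53inp1 and Mdm2 are red in all 7 classes, Ccng1 in none, and Gdf15 is deepest blue in PT-like cells at -2.48.

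Counted together, 3 of the 10 genes were at least 2-fold higher with JPI-289 in PT-like cells (Cdkn1a, Trp53inp1 and Bax) and 1 was at least 2-fold lower (Gdf15), where 9.09% of all 11307 genes tested were at least 2-fold higher and 23.7% at least 2-fold lower. The median log2 ratio of the 10 was 0.61, beside -0.19 for all genes. In EC-like cells 4 were at least 2-fold higher (Cdkn1a, Mdm2, Trp53inp1 and Phlda3) and 0 lower, against 5.16% and 18.5% of all genes, with a median of 0.45 beside -0.18. In stroma-like cells 9 genes had at least 20 UMIs, of which 4 (Cdkn1a, Mdm2, Trp53inp1 and Zmat3) were at least 2-fold higher and 0 lower, beside a background of 11.2% and 13.9%. Loop and distal tubule-like cells had 2 higher (Cdkn1a and Trp53inp1) and 2 lower (Gdf15 and Bbc3), with 6.64% and 11.9% of all genes.

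The remaining classes held fewer such genes. Collecting duct-like cells had 1 gene at least 2-fold higher (Cdkn1a) and 0 lower, against 7.52% and 14.1% of all genes. With equal weight of cells Cdkn1a stood there at 0.88, under 2-fold. The share of these cells with a Cdkn1a UMI was 15.7% (9.24 to 24.2%) and 32.7% (28.2 to 37.4%) after thinning. Without thinning it was 51.2% and 52.2%, at median depths of 6013 and 1562 UMIs. Macrophage-like cells had 1 of 6 higher (Trp53inp1) and 0 lower, against 10.9% and 17.4%. Neutrophil-like cells had 0 of 7 higher and 2 lower (Gdf15 and Aen, on 22 and 20 UMIs), against 11.6% and 10.3%. Free RNA was expected to give 7.04 Gdf15 UMIs there after saline, where 9 were counted, and 14.5 after JPI-289, where 13 were counted, so that gene stood at about the background, and the intervals of both ratios crossed 0. With the fold alone as the rule and 10 genes or fewer, these counts describe the genes and are no test of the pathway. The count in PT-like cells was 5, with Mdm2 and Bbc3 added, when ratios were taken relative to the median of all genes, by which 13.4% of all genes were at least 2-fold higher.

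**Figure D3:**
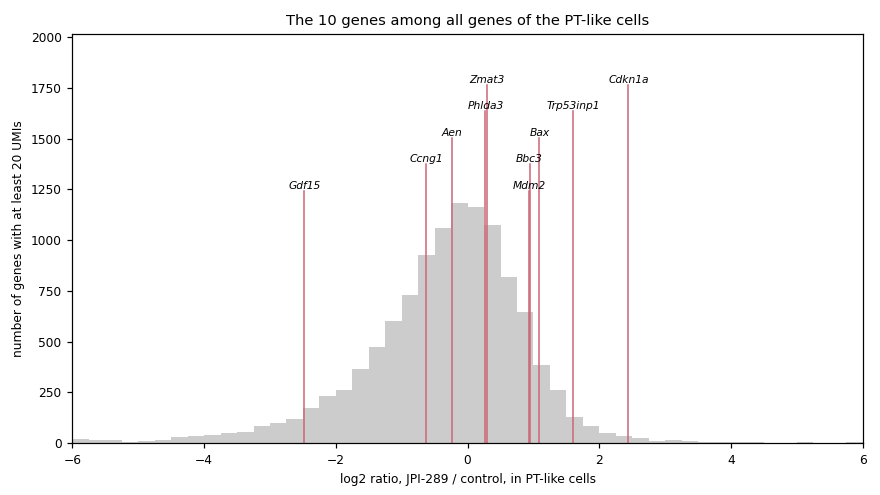
Number of genes (grey bars) by log2 ratio of JPI-289 over control in PT-like cells, for the genes with at least 20 UMIs, with a line at the ratio of each of the 10 genes. Cdkn1a at 2.44 and Gdf15 at -2.48 stand in opposite tails, and Aen at -0.24, Phlda3 at 0.27 and Zmat3 at 0.29 lie near the centre.

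Within the PT-like class the clusters were split by library, and 4 were largely control and 3 largely JPI-289. Taken each in the library that held most of its cells, the control clusters had Cdkn1a at 40.1 to 84.0 CPM. The JPI-289 clusters had 193 to 512, and no interval of 1 set overlapped the other. The few cells of the other library did not keep to this. In the cluster led by Plin2, Srxn1 and Maoa, 15 control cells had Cdkn1a at 397 (171 to 782) CPM and JPI-289 cells 314 (287 to 342). Bax there was at 496 (238 to 913) and 223 (200 to 247) CPM. In the cluster led by Acy3, Slc22a6 and Nat8, 11 JPI-289 cells had Cdkn1a at 122 (3.09 to 680) CPM, on 1 UMI. For Bax, on the same basis, the clusters lay at 52.2 to 126 and at 161 to 223, where the intervals of the nearest pair, 110 to 145 and 144 to 178, just overlapped. For Trp53inp1 the control clusters lay at 8.84 to 54.9 CPM and the JPI-289 clusters at 48.2 to 65.9. Its highest control value, 54.9 (39.4 to 74.4), was in the cluster led by Slc5a12, Gm26917 and Slc13a1 and lay among the JPI-289 clusters. For Gdf15 intervals overlapped as well, since the control cluster led by Keg1, Npl and Acnat2 had 58.4 (48.4 to 69.9) CPM, close to the JPI-289 cluster led by Inmt, Krt20 and Cyp2e1 at 54.8 (47.2 to 63.2), while the other 3 control clusters had 218 to 506. Ccng1 levels were mixed between the libraries, with control clusters at 37.5 to 339 CPM and JPI-289 clusters at 62.9 to 180. Its lowest level was in the control cluster led by Slc5a12, Gm26917 and Slc13a1, which had the highest Mdm2 of the 7 clusters, 103 (81.3 to 129) CPM.

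**Figure D4:**
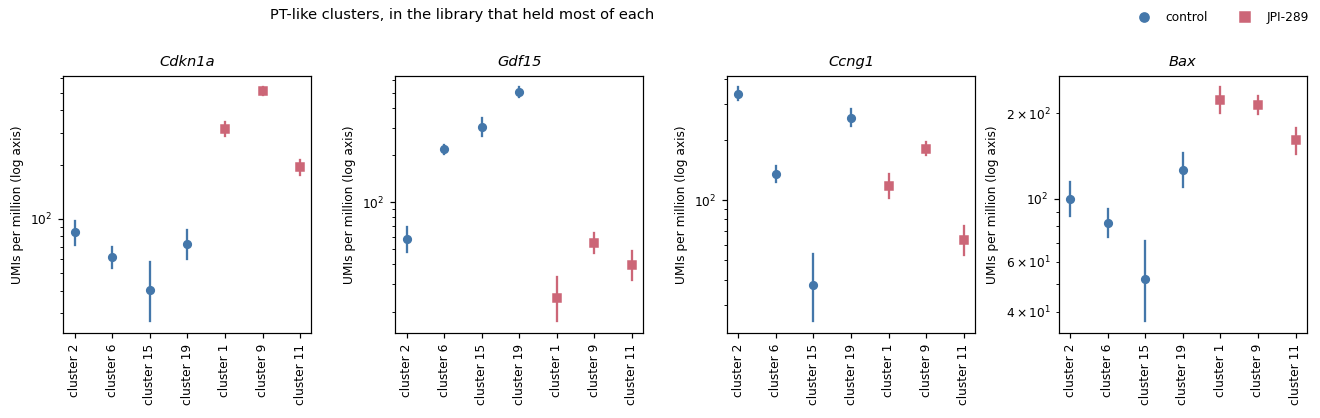
Cdkn1a, Gdf15, Ccng1 and Bax in the 7 PT-like clusters, in CPM on a log axis with 95% Poisson intervals, each cluster in the library that held at least 93.7% of it (circles control, squares JPI-289). The 3 JPI-289 clusters lie above the 4 control clusters for Cdkn1a and Bax, for Bax with intervals that just overlap, and among them for Ccng1.

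The PT-like class differed between the libraries in its markers as well. The 15 PT markers summed to 15005 CPM after saline and 12034 after JPI-289, and the 10 markers of injured PT, such as Havcr1 and Krt20, to 8739 and 13398, with every marker of both lists detected in both libraries. Neutrophil markers in these cells summed to 29.1 and 65.8 CPM, and their part in the PT-like values was not tested. In 2 of the JPI-289 clusters the injured PT list scored above the PT list. Without those 2 clusters, in 1756 control and 418 JPI-289 cells, Cdkn1a stood at 2.92 in log2, Gdf15 at -2.13, Ccng1 at -0.16 and Aen at 0.26, and 5 of the 10 genes were at least 2-fold higher, against 11.7% of all 11020 genes tested in these cells. The ratio of Cdkn1a was thus larger, those of Gdf15 and Ccng1 were smaller and that of Aen changed sign. Of these JPI-289 cells, 402 were in the cluster led by Inmt, Krt20 and Cyp2e1, which also had Havcr1 among its leading genes. Its injured PT score was 0.92, against -0.11 to 0.52 in the 4 control clusters. Injured PT cells were therefore not removed by this step, and the clusters compared still differed.

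In EC-like cells the cluster led by Plvap, Fam167b and Ly6c1 was mostly control (205 and 33 cells) and the one led by Igfbp3, Nmb and Col13a1 almost wholly JPI-289 (1 and 184). The cluster led by Apln, Esm1 and Edn1 had 292 and 349 cells and gave log2 ratios of 1.64 (1.49 to 1.79) for Cdkn1a, 1.38 (0.94 to 1.86) for Mdm2 and 2.70 (1.53 to 4.34) for Trp53inp1. The higher levels of these genes were therefore also seen within a cluster that both libraries shared. Red blood cell markers summed to 109 CPM in control and 1352 in JPI-289 EC-like cells, while red blood cells themselves held 7.02 and 44.1 Cdkn1a CPM; the part of these cells in the EC-like values was not tested.

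Sums that do not depend on cell calling or class names had the sign of the PT-like ratio for all 10 genes. The PT-like cells are part of these sums, and the share of all genes with the same sign in both was not measured. Over all barcodes, Cdkn1a had 154 (150 to 158) and 530 (522 to 537) CPM, or 1.78 in log2, and Trp53inp1 had 19.3 and 71.2 CPM, or 1.88. Mdm2 stood at 1.14, Bbc3 at 0.59 and Bax at 0.56, with Gdf15 at -0.79, Ccng1 at -0.75 and Aen at -0.21. Zmat3 at 0.18 (0.041 to 0.33) was slightly higher and Phlda3 at 0.11 (-0.069 to 0.29) did not stand clear of 0. Over the kept cells alone Phlda3 stood at -0.047 (-0.26 to 0.17). Cell shares enter these sums: PT-like cells made up 47.3% of control and 32.6% of JPI-289 cells. In bulk sums fewer cells of a type and less RNA per cell cannot be told apart.

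Trp53 itself, the gene of p53, was not higher in transcript level, at 33.8 (29.9 to 38.1) and 25.4 (21.9 to 29.3) CPM in PT-like cells, a log2 ratio of -0.41 (-0.69 to -0.14), and at -0.83 in EC-like cells. p53 is regulated mainly through its protein, which was not measured here. Of 52 other genes of the pathway, 40 had at least 20 UMIs in PT-like cells, of which 6 were at least 2-fold higher and 13 at least 2-fold lower, with a median of -0.076. Among the 39 other targets 31 were measured, and 5 were at least 2-fold higher and 10 lower, with a median of 0.0039. The background for these counts is the 9.09% and 23.7% of all genes given above.

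By group, the other targets that act on the cell cycle had the highest median, 0.99, with 3 of 7 at least 2-fold higher and 2 lower. That median is the value of 1 gene, Ckap2, at 0.99 (-0.39 to 2.60) on 7 and 13 UMIs. The list spread from -2.47 to 2.33, and Btg2, on 1307 and 317 UMIs, stood at -1.90 (-2.08 to -1.72). The 3 highest of all 40 genes were Gtse1, which restrains p53 in the G2 phase, at 2.33 (1.12 to 3.98) on 6 and 29 UMIs, Sfn, the 14-3-3σ protein that holds cells in G2, at 1.85 (1.46 to 2.27), and Siva1, a pro-apoptotic adaptor, at 1.49 (1.22 to 1.78). The 3 lowest were Ephx1, a microsomal epoxide hydrolase, at -3.79 (-4.73 to -3.06), Plk3, a stress-responsive kinase, at -2.47 (-2.82 to -2.14), and the death receptor gene Fas at -2.45 (-3.51 to -1.61). Targets in cell death (9 measured, median -0.17), metabolism and redox (8, -0.14) and DNA repair (7, -0.16) were centred near the median of all genes, and so were the p53 family and its regulators (9, -0.26). These directions were not shared by every class: Sfn stood at -0.65 (-0.87 to -0.44) in loop and distal tubule-like cells, where its level was highest of the 3 classes compared, and Fas at 0.47 (0.25 to 0.70) in EC-like cells. In EC-like cells 34 of the 52 were measured. Of these 2 were at least 2-fold higher and 8 lower, beside 5.16% and 18.5% of all genes. The metabolism and redox targets in EC-like cells had a median of -1.18, with 1 of 7 higher and 4 lower. The other lists there had medians from -0.34 to 0.20. Loop and distal tubule-like cells had 29 measured, with 3 higher and 4 lower, beside 6.64% and 11.9% of all genes.

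**Figure D5:**
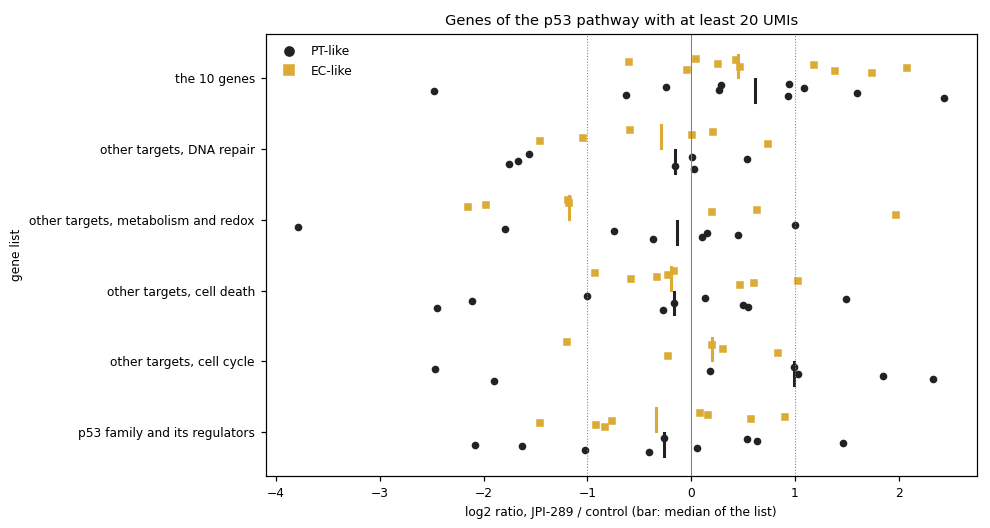
log2 ratio of JPI-289 over control for genes of the p53 pathway with at least 20 UMIs, by list, in PT-like (circles) and EC-like cells (squares), with bars at the list medians and dotted lines at 2-fold. In PT-like cells the 10 genes have a median of 0.61, and the medians of most lists lie near 0. The other cell cycle targets have a median of 0.99, the value of 1 gene on 7 and 13 UMIs, and spread from -2.47 to 2.33.

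Across 9 classes in both libraries (18 points), the genes whose levels followed Cdkn1a most closely among 9721 genes were Rbm42 (Pearson r of log2 levels 0.965), Rab35 (0.932) and 2510039O18Rik (0.931). For Mdm2 they were Atf1 (0.939), Sde2 (0.929) and Cdk9 (0.928), and for Ccng1 Ndufb4 (0.932), Fuom (0.929) and Chmp6 (0.922). Among the 10 genes themselves, Cdkn1a followed Mdm2 (0.82) and Trp53inp1 (0.65) but not Ccng1 (0.11) or Gdf15 (-0.21), and Ccng1 followed Gdf15 (0.72). The highest value of any pair was that of Bax with Aen (0.83). Bax also followed Bbc3 (0.76) and Cdkn1a (0.61), Ccng1 followed Aen (0.70), and Gdf15 followed Zmat3 (0.72). The pairs therefore do not fall into 2 separate groups of genes. The 18 points share 2 libraries and their depth, so these values describe likeness of pattern only.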

How the data were processed

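The authors prepared 5′ single-cell libraries (10x Genomics kit v2) from 1 saline and 1 JPI-289 kidney, aligned the reads to mm10 and counted UMIs per gene and barcode. They deposited raw counts of all barcodes, without cell calling or filters. The submitters' processing notes name Cell Ranger 5.0.1, whereas the matrix header names version 4. The public normal kidneys of the study were not used here.

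Cells were called by total UMIs and then, from 500 UMIs, by difference from empty droplets (10000 simulations, false discovery rate 0.01), and cells with over 50% mitochondrial UMIs were removed. They were clustered with scanpy 1.11.5 and leidenalg 0.10.2 (Python 3.11.15; 2000 variable genes without the genes reported, 30 components, 20 neighbours, resolution 1.0, no correction between libraries). A cluster was named after the marker list with its highest mean log2 score where that score reached 0.5 and 3 of the markers were detected. Clusters led by the injured PT list were named PT-like where the PT list came second and reached 0.5. A score below 2 also needed a marker of that class, for PT-like clusters of either PT list, among the 30 leading genes. A cluster stayed without a name where another list, platelet and urothelium markers included, had more of its 10 leading genes. For this reason the cluster led by Fn1, Lyz2 and Arg1 had no name, at a macrophage and monocyte score of 4.34. The naming rule was chosen with the clusters in view. Some PT-like clusters had no PT marker among their 10 leading genes. These were the one led by Plin2, Srxn1 and Maoa (15 control and 896 JPI-289 cells) and the one led by G6pc, Slc4a4 and Cyp4a14 (522 and 1). Doublets were sought with scrublet, which marked 0 and 2 cells and so did not work, so doublets remain among the cells; leaving out the highest 5% of scores (188 and 237 cells) was an alternative.

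For each class and library the UMIs of a gene were summed and scaled to 1000000 UMIs of the same cells (CPM). Ratios used sums plus 0.5, with exact binomial intervals; levels have exact Poisson and shares exact Clopper-Pearson intervals. Genes with at least 20 UMIs over both libraries were compared. Thinning drew 1000 UMIs per cell. Simulated data were used to test the ratios, their intervals, the fold rule and cell calling only.

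All 10 genes are named, with the 3 highest and 3 lowest of 52 other pathway genes in PT-like cells. So are the 3 genes most like Cdkn1a, Mdm2 and Ccng1. Other pathway genes named (Trp53, Ckap2 and Btg2) and clusters were picked after their values were seen. The genes and lists were chosen with earlier results of these data known.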

Additional observations from a re-analysis of the deposited data

Results flagged for a closer look

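For 4 of the genes the log2 ratio (JPI-289 over saline) had an interval wholly above 0 in one cell class and wholly below 0 in another class of the same libraries. Cdkn1a stood at 2.44 in PT-like and at -0.60 in neutrophil-like cells. Gdf15 stood at -2.48 in PT-like and at 0.47 in EC-like cells, where no direction is read, since the cluster shared by the libraries gave -0.53, thinned shares of cells were 3.05% and 1.07%, and free RNA was expected to give 50.4 of 75 control UMIs. Bax stood at 1.09 in PT-like and at -0.84 in macrophage-like cells. Bbc3 stood at 0.94 in PT-like cells, on 24 and 42 UMIs. In loop and distal tubule-like cells Bbc3 stood at -1.91, on 15 and 5 UMIs. The share of all genes that meet this rule was not measured, so the count of 4 has no background beside it. With 1 library per group these differences between classes were not tested.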

How the results depend on the processing

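Of 698 values of the 62 ratios of a gene in a class under the alternatives, 656 stayed within the counting interval of the ratio reported. Of the ratios of at least 2-fold, 1 reversed, Gdf15 in neutrophil-like cells, 0.99 in place of -1.39 with the first step of calling alone, where it had 0 and 6 UMIs. Of the smaller ratios whose interval excluded 0, Cdkn1a in neutrophil-like cells (0.29 with that step alone) and Aen in PT-like cells (0.26 with the clusters led by the PT list) changed sign. The number of genes at least 2-fold higher in PT-like cells was 3, beside 9.09% of all genes. It was 5 when centred on all genes (13.4% of all genes) and 5 with the PT-like clusters led by the PT list (11.7%). It was 2 with at least 1000 UMIs per cell, where Bax stood at 0.98. It was 4 with the first step alone (Bbc3 added at 1.22), with equal weight of cells (Phlda3 at 1.03) and with free RNA subtracted (Bbc3 at 1.01). At resolution 0.5 it was 3, with Mdm2 at 1.03 and Bax just under 2-fold. For the settings given without a share of all genes that share was not measured, so their counts have no background beside them. The causes of these changes were not tested. The median of the 10 in PT-like cells stayed between 0.29 and 1.00. In PT-like cells Cdkn1a stayed between 2.17 and 2.92, Trp53inp1 between 1.54 and 1.91, Gdf15 between -2.67 and -1.69, and Ccng1 between -0.86 and -0.16. Cdkn1a in macrophage-like cells, 1.00 as reported, was 0.42 with the first step of calling alone, 0.43 at resolution 0.5 and 0.43 when a cluster led by Fn1, Lyz2 and Arg1 was counted as macrophages, an alternative chosen after seeing the data, as was a naming score of 0.75, which moved no ratio out of its interval. In stroma-like cells, with 102 JPI-289 cells, and for Bbc3, depth limits what can be seen.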

Other observations

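Among the clusters without a name, the one led by Slc14a2, Bst1 and Tert (60 control and 58 JPI-289 cells) had Gdf15 at 655 CPM after saline and 1202 CPM after JPI-289, or 0.87 (0.69 to 1.06) in log2, with Cdkn1a at 1.72 (1.49 to 1.96) and Phlda3 at 1.25 (0.30 to 2.28). In the cluster led by Neat1, Gm26917 and Malat1 (69 and 305 cells) Gdf15 was at -2.22 (-2.68 to -1.75) and Cdkn1a at 0.047 (-0.57 to 0.79). The cluster led by Fn1, Lyz2 and Arg1 (69 and 131 cells) had Cdkn1a at -0.13 (-0.32 to 0.072) and Bax at -0.77 (-1.09 to -0.45). Cells left out for over 50% mitochondrial UMIs had Cdkn1a at 20.2 and 69.5 CPM and Gdf15 at 41.8 and 16.2, and barcodes under 100 UMIs had Cdkn1a at 163 and 529 and Gdf15 at 152 and 87.3.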
